A study of Mus musculus with 6 samples.

Results

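The regions described here are the 618 intervals of the acetylated histone H3 (H3ac) map of mouse mesenchymal stem cells (MSCs) whose name carries the code O+Y. They were chosen by that code and by a length under 20 kb, from 24431 regions in all, of which they made up 2.53%. The letters O, Y and AC are read here as the groups Old, Young and OldAcetate, so O+Y stands for Old and Young but not OldAcetate. The labels do not define the code. The length limit left out 0 regions of this code, since the longest was 17500 bp, and the rule has no other threshold that can be seen in the table. The code was made by the authors from these same libraries, so the H3ac levels below describe what the code selected. Counts from tests fitted over the whole map are given once, as a description, and support nothing about these regions.

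Acetylation of the tail of histone H3 marks open, active chromatin at promoters and enhancers. The acetyl group comes from acetyl-CoA, which cells can make from acetate. MSCs are the stromal stem cells of bone that can form bone, fat and cartilage cells, and enhancers mostly lie away from start sites.

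The map was made by CUT&RUN, in which an antibody guides a nuclease to marked chromatin and the released DNA is sequenced. The Young group was isolated from mice aged 3 to 5 months and left untreated, and the Old group, also untreated, from mice aged 18 to 22 months. The OldAcetate group came from mice of the Old age range and received 5 mM sodium acetate in culture for 3 days. Every group held 2 libraries and all cells grew at 2% oxygen with 10% FBS and 1% antibiotic. The labels name no strain or sex and do not say whether libraries of a group came from separate mice, so the spread between them may be technical. Library totals ranged from 2163351 to 3039481 reads. Between 45.9% and 64.8% of a library fell in the regions, and both Old libraries (49.9% and 45.9%) lay below the other 4. The start sites of all 10 MSC marker genes checked (among them Pdgfra, Ly6a and Prrx1) had a region, against 1 of 5 haematopoietic markers and 0 of 3 endothelial markers. Longer gene lists were less clear-cut, counting a region that overlaps the gene or lies within 10 kb of its start. By that rule 17 of 18 stromal stem cell genes, 9 of 21 haematopoietic and macrophage genes and 7 of 12 endothelial genes had one. The share was 65.4% over all protein-coding genes.

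Sequences of 7 regions are shown first, because position and base composition are the properties that the code did not use. Start sites of protein-coding genes were rare among the O+Y regions, and 3 of them are printed from 250 bases before to 50 bases after the start, from RefSeq on GRCm38.p6, with CpG dinucleotides in capitals. Acan (aggrecan, the main proteoglycan of cartilage; chr7:79052976-79053275, plus strand) was chosen as a cartilage gene and holds 31 CpGs. Galnt5 (an enzyme that starts mucin-type O-glycosylation; chr2:57997905-57998204, plus strand) holds 5 and was among the regions with the most H3ac per kb. Crygs (a lens crystallin; chr16:22811361-22811660, minus strand) holds 3 and was the start site named for the lowest OldAcetate level.
Acan promoter: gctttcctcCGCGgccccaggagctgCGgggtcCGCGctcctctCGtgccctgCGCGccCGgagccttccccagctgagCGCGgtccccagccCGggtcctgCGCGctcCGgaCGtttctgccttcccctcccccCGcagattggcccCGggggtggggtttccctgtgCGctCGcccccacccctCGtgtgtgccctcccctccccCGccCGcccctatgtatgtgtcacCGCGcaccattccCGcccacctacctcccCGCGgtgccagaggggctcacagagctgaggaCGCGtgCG
Galnt5 promoter: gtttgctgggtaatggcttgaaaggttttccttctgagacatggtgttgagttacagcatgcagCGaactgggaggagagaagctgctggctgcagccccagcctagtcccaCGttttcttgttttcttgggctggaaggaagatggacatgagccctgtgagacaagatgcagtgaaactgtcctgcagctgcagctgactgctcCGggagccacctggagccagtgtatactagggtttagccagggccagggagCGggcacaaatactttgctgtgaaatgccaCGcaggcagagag
Crygs promoter: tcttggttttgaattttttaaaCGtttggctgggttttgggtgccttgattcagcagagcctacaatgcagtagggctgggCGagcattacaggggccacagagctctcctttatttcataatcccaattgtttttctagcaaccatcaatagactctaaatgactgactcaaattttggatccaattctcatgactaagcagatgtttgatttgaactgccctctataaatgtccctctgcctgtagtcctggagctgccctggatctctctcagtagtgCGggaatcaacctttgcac
The other 4 sequences are the middle 200 bases of regions away from start sites, on the plus strand of GRCm38, with matches to TGANTCA (the AP-1 motif) and GGAATG (the TEAD motif) on either strand in capitals. These are examples picked from the named regions and do not show how often such regions hold a match. Of the O+Y regions over 1 kb from a start, 21.9% had AP-1 and 31.2% had TEAD in the middle 500 bases. The region farthest from any protein-coding gene start (chr8:6574401-6574600, nearest start site Slc10a2 at 1467650 bp) holds an AP-1 match. The region in an intron of Foxn3 (a forkhead repressor; chr12:99530151-99530350) holds a TEAD match. The region within Dync1i2 (a dynein chain; chr2:71229651-71229850) holds an AP-1 match and was higher in OldAcetate, against the code. The region 34577 bp from the start of Sqle (squalene epoxidase of cholesterol synthesis; chr15:59279151-59279350) holds neither and had the lowest OldAcetate level relative to the other groups among regions with at least 10 reads on average.
region farthest from a gene: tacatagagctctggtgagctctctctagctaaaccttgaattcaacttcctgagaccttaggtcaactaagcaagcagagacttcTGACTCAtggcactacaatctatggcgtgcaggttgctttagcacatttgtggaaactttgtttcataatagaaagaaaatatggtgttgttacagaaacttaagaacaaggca
Foxn3 intron: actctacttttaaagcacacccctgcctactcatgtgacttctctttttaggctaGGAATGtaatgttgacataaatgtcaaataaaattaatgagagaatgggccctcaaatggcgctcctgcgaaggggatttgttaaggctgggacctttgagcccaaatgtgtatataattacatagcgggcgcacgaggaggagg
Dync1i2 region: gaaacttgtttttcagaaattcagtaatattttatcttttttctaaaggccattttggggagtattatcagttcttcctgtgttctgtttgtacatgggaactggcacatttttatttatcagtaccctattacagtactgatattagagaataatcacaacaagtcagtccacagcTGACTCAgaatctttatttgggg
region near Sqle: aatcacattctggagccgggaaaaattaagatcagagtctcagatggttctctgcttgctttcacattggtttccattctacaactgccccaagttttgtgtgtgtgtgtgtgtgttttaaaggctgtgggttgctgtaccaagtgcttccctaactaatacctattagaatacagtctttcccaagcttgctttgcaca
Between them, these sequences span the CpG-rich and CpG-poor start sites and the distal regions of which the O+Y set is mostly made.

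The O+Y regions were short and weak. Their median length was 4000 bp (quartiles 3000 and 5500 bp) and together they covered 2.88 Mb, against a median of 5500 bp for the 18006 regions under 20 kb whose code names all 3 groups (AC+O+Y, called shared regions here). Their median level over the 6 libraries was 9.14 RPM (reads scaled to the library total), which is 2.26 RPM per kb, and the shared regions had 16.9 RPM and 2.86 RPM per kb. Per kb, the O+Y regions resembled the 2953 regions coded AC+Y (2.31 RPM per kb) and the 1139 coded Y (2.16). Regions of those codes were also as short, with median lengths of 4000 bp for AC+Y and 3500 bp for Y. The median O+Y region held 24 reads in a library, at which counting error alone is 20.4% of the value. The O+Y regions took 0.542% to 0.776% of the reads of a library.

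OldAcetate was lower, but H3ac was not absent. The median over the 618 regions was 11.5 and 10.2 RPM in Young, 9.94 and 8.15 RPM in Old, and 8.06 and 7.92 RPM in OldAcetate. As group values this was 10.9 ± 0.922 (SD, n = 2), 9.05 ± 1.26 (SD, n = 2) and 7.99 ± 0.0989 (SD, n = 2). Both OldAcetate libraries were below the other 4, but Old replicate 2 was closer to them than to Old replicate 1. In reads, the median region held 24 and 19 in the OldAcetate libraries, and 3 and 1 of the 618 regions held 0 reads there. A listed 0 in these short regions still allows up to 3 reads. The code therefore did not separate regions with reads from regions without them.

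The groups that a code leaves out had medians from 1.59 to 1.95 RPM per kb over the 3 codes. In OldAcetate, the O+Y regions had 1.92 and 1.95 RPM per kb, and regions coded Y, which leave out both old groups, had 1.90 and 1.95 in OldAcetate and 1.85 and 1.59 in Old. In regions coded AC+Y, where the code leaves out Old, both Old libraries had 1.85 and 1.72 RPM per kb. In the same AC+Y regions OldAcetate had 2.40 and 2.41, and in the shared regions 2.94 and 2.90. For the groups that the code names, the O+Y regions had 2.76 and 2.45 RPM per kb in Young and 2.40 and 1.99 in Old. Young levels per kb were thus equal to those of AC+Y regions (2.76 and 2.45), and the codes differ in the old cells.

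**Figure D1:**
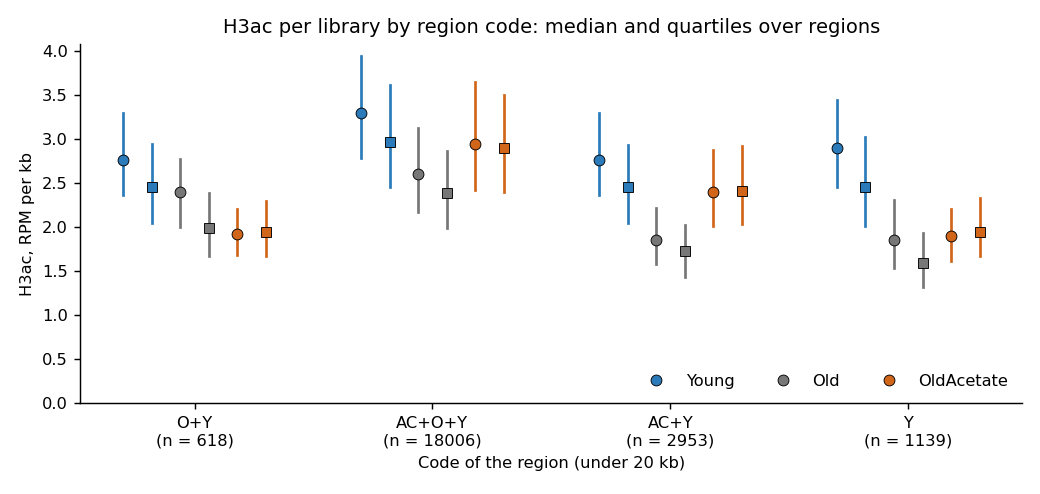
H3ac in RPM per kb in each library (points: median over regions, circle replicate 1 and square replicate 2; bars: lower to upper quartile) for 4 codes of regions under 20 kb. In O+Y regions the OldAcetate medians were 1.92 and 1.95, next to 1.99 in Old replicate 2, whereas in shared regions OldAcetate (2.94 and 2.90) lay above both Old libraries.

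To compare regions across libraries of unequal share in regions, values were put on a log2 scale and each library was centred on its median over all regions. On this scaled log2 measure, OldAcetate minus the mean of Old and Young had a median of -0.35 over the O+Y regions (quartiles -0.52 and -0.19, range -1.94 to 0.40) and 0.00 over all 24431 regions. Of the 618, 573 were below 0 and 45 were not. Regions coded Y had a median of -0.20, shared regions 0.01 and AC+Y regions 0.09. By library, the median deviation of the O+Y regions from their own mean was 0.08 in both Young libraries, 0.25 and 0.12 in the Old libraries and -0.25 and -0.20 in the OldAcetate libraries, with a pooled SD between replicates of 0.06. Without centring, the median difference of OldAcetate from both was -0.28. These values were used by the code and are a description.

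**Figure D2:**
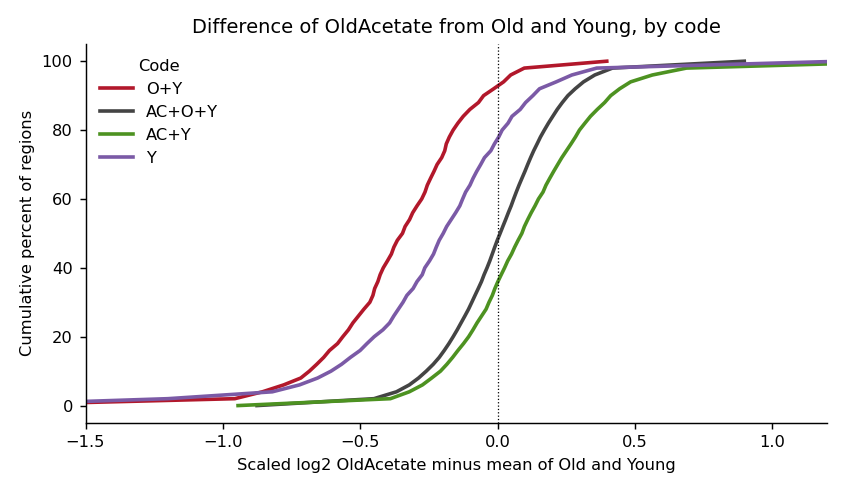
Cumulative percent of regions (vertical axis) at or below each scaled log2 difference of OldAcetate from the mean of Old and Young (horizontal axis, shown from -1.5 to 1.2), for 4 codes. The O+Y line crosses 0 at 92.7% of its regions, and the line of shared regions at 48.3%.

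The order of the libraries was then counted within single regions. Both OldAcetate libraries lay below the other 4 in RPM in 133 of the 618 regions (21.5%), beside 2.46% of all regions, and above the other 4 in 2 regions, beside 5.99% of all regions. After centring, 216 had both OldAcetate libraries lowest, beside 7.45% of all regions. Against Old alone, both OldAcetate libraries lay below both Old libraries in 164 of the 618 (26.5%), beside 3.46% of all regions. OldAcetate replicates 1 and 2 were the lowest single library in 180 (29.1%) and 192 (31.1%) O+Y regions, beside 6.91% and 9.22% of all regions. Old replicate 2 was the lowest in 144 (23.3%), beside 48.4% of all regions. Among shared regions Old replicate 2 was the lowest library in 47.8%.

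Old and Young, the groups that the code joins, could not be ordered without naming the scale. On the scaled log2 measure Old minus Young had a median of 0.09 over the O+Y regions, but without centring it was -0.26, since Old was lower over all regions by a median of -0.35. Thus the O+Y regions were lower in Old than in Young in RPM, by less than the whole map. The mean of Old in RPM was below the mean of Young in 493 of 618 regions. The median change relative to all regions was carried more by Old replicate 1 (0.25) than by Old replicate 2 (0.12).

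No O+Y region passed a test by itself. limma on all 24431 regions called 0 of the 618 for OldAcetate vs Old at an adjusted p under 0.05 (0% of all regions called), 0 for OldAcetate vs Young (0% of all) and 0 for Old vs Young (0.00819% of all, which is 2 regions). edgeR on the recovered reads also called 0 in each comparison. At an unadjusted p under 0.05, limma had 135 O+Y regions for OldAcetate vs Old, all lower in OldAcetate, beside 3.09% of all regions in that direction, and edgeR had 130. For OldAcetate vs Young it had 97, of which 95 were lower in OldAcetate, beside 2.63% of all regions, and edgeR had 109. For Old vs Young it had 37, of which 32 were higher in Old, beside 2.88% of all regions, and 5 lower, beside 2.66%, and edgeR had 35. Without centring, limma called 9 O+Y regions for Old vs Young, all lower in Old, beside 9.5% of all regions in that direction. The code was made from these libraries, and nothing is read from these counts.

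Position in the genome was not part of the code. Only 57 of the O+Y regions (9.22%, 95% Wilson interval 7.19 to 11.8) lay within 1 kb of the start of a protein-coding gene, beside 40.5% of all regions. The share was 45.6% (44.8 to 46.3) for shared regions, 22.1% (20.6 to 23.6) for AC+Y and 11.2% (9.45 to 13.1) for Y, so O+Y and Y regions overlapped in their intervals and the other codes stood above. A further 290 (46.9%) lay inside a gene and 271 (43.9%) between genes. The median distance to a start site was 45667 bp, and 160 regions were over 100 kb away. Among regions of 5 to 15 RPM, a range chosen to set regions of like RPM side by side, the shares were 9.83% of 539 O+Y regions, 39.4% of shared, 22.7% of AC+Y and 12.1% of Y regions. Levels per kb still differed within this range. Their medians were 2.32 RPM per kb for O+Y, 2.80 for shared, 2.37 for AC+Y and 2.20 for Y regions. Intervals treat regions as independent and cover counting error only.

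**Figure D3:**
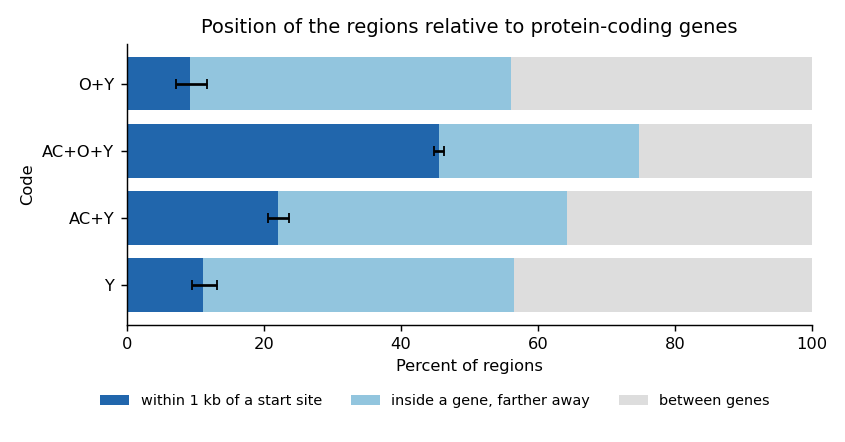
Percent of regions of each code within 1 kb of a protein-coding start site, inside a gene but farther away, or between genes (bars sum to 100%; whiskers: 95% Wilson interval of the first share). The O+Y bar has 9.22% at start sites and the bar of shared regions 45.6%.

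The lower OldAcetate level, which the code selected for, was found in every position class, and the values here are a description. The median scaled difference was -0.42 in the 57 start-site regions, -0.34 in the 290 inside genes and -0.34 in the 271 between genes. It was -0.42 in the 340 regions of up to 4000 bp and -0.27 in the 278 longer ones. The shorter regions had a lower median level in RPM (7.63 against 12.3) and a higher one per kb (2.47 against 2.05 RPM per kb). The 7 regions with a mean under 10 reads, with a median length of 500 bp, had a median of -1.23. Leaving them out gave a median of -0.34 over the other 611.

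The nearest neighbours of O+Y regions carried much the same codes as those of the other regions, while spacing differed for Y regions. The nearest other region was a shared region for 480 of the 618 (77.7%), and this share was 81.0% for shared, 79.3% for AC+Y and 78.3% for Y regions. It was another O+Y region for 13 (2.10%), against 2.33% for shared regions. The median gap was 16500 bp, against 16000 bp for shared, 15000 bp for AC+Y and 13500 bp for Y regions. Within 2 kb of another region lay 27 O+Y regions (4.37%), against 3.30% of shared, 5.01% of AC+Y and 9.83% of Y regions. The 346 O+Y regions that overlapped protein-coding genes were spread over 345 genes, a count that includes overlapping genes, and 17 genes had 2 or more. The most, 5, fell within Gm20388, a gene model of 4435 kb that overlaps many other genes. Robo1 (an axon guidance receptor) and Cacna2d3 (a calcium channel subunit) had 3 each, Esr1 (oestrogen receptor alpha) had 2 of its 7 regions in this class, and both regions of Agap2 had this code. In Robo1 the 3 regions were not alike, with scaled differences of -0.30, -0.22 and 0.11. These genes were chosen after their values were seen.

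The start-site regions hold genes of many kinds. The 8 with the highest mean RPM were Chd5 (a chromatin remodeller), Car12 (a carbonic anhydrase), Dnajc22, Mos (an oocyte kinase), Plvap (a protein of endothelial diaphragms), BC030867, Rnf166 (a ubiquitin ligase) and Serpinb9b (a protease inhibitor). Chd5 (chr4:152336001-152346000) had 22.7 and 16.7 RPM in Young, 19.0 and 15.9 RPM in Old, and 21.8 and 12.9 RPM in OldAcetate. OldAcetate replicate 1 was there the second highest library and replicate 2 the lowest, so the groups overlapped. Rnf166 (chr8:122473001-122478500, which also overlaps Ctu2) had 14.1 and 12.3 RPM in Young, 13.4 and 13.1 RPM in Old, and 9.07 and 10.8 RPM in OldAcetate. Both OldAcetate libraries were below the other 4, with a scaled difference of -0.46, and Mos was ordered in the same way (-0.42). In the other 6 of these 8 the OldAcetate libraries overlapped the rest, with scaled differences from -0.53 at Serpinb9b to -0.01 at BC030867.

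In the 8 regions with the most H3ac per kb, both OldAcetate libraries lay below the other 4. This order was found in 21.5% of O+Y regions and 2.46% of all regions. The code was made from these same values, so it is a description. These 8 regions reached 3.11 to 3.32 RPM per kb and were 1500 or 2500 bp long. They lay at the start sites of Galnt5 and Neil3 (a DNA glycosylase), inside Auts2, Foxn3 and Pde6a, and between genes nearest to Hsp90b1, Tnc and Zfp868. Galnt5 (chr2:57997001-57999500) had 8.23 and 9.80 RPM in Young, 8.78 and 9.15 RPM in Old, and 5.38 and 6.67 RPM in OldAcetate. Young and Old overlapped there and both OldAcetate libraries were lower, with a scaled difference of -0.61. The Foxn3 region (chr12:99529001-99531500) had 10.9 and 10.2 RPM in Young, 9.24 and 6.76 RPM in Old, and 4.70 and 5.42 RPM in OldAcetate. Here the 3 groups did not overlap, with Old between the others. In the region nearest to Zfp868 (chr8:69584001-69585500), Old had 3.70 and 3.98 RPM and OldAcetate 3.70 and 3.34, so that Old and OldAcetate were nearly equal while Young had 5.92 and 7.35. OldAcetate replicate 1 was just below Old replicate 1 there in RPM, although it held 11 reads and Old replicate 1 held 8.

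The lowest OldAcetate values relative to Old and Young, among regions with at least 10 reads on average, came from single regions scattered over the genome. The lowest was the region near Sqle (chr15:59278001-59280500), with 11.2 and 9.39 RPM in Young, 7.40 and 7.56 RPM in Old, and 4.70 and 3.34 RPM in OldAcetate and a scaled difference of -1.11. All 4 other libraries exceeded OldAcetate, which held 14 and 8 reads. Crygs (chr16:22809001-22813000) had 11.2 and 10.6 RPM in Young, 8.78 and 11.5 RPM in Old, and 5.38 and 5.42 RPM in OldAcetate, with both OldAcetate libraries below the rest and a scaled difference of -0.96. The others lay nearest to Ddx10, Fabp5 (a fatty acid binding protein), Slc10a2 and Tnc (tenascin-C), and inside Atxn7l1 and Diaph3 (a formin), with differences from -1.05 to -0.95. The region nearest to Tnc was 496486 bp from its start, and the nearest start site does not show which gene a region serves.

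Not all O+Y regions followed the code. In RPM, the mean of OldAcetate was below the mean of Old in 455 of the 618 regions and not in the others. Without centring, OldAcetate minus Old had a median log2 difference of -0.16 over the O+Y regions, beside 0.24 over all regions. On the scaled measure, 45 O+Y regions were at or above 0 against the mean of Old and Young. Only the highest on that measure are described here. The largest scaled difference was 0.40 inside Ttc39b (chr4:83262001-83274000), with 22.4 and 17.2 RPM in Young, 19.0 and 17.1 RPM in Old, and 26.2 and 25.9 RPM in OldAcetate. Both OldAcetate libraries were the highest there and likewise in the Dync1i2 region (0.28), and these were the 2 regions of that order. At the start of Coa4 (a factor of cytochrome oxidase assembly) the values were 8.23 and 3.27 RPM in Young, 7.86 and 4.37 RPM in Old, and 6.05 and 9.18 RPM in OldAcetate, and replicates differed more than groups. In the fourth, 361035 bp from Klf4, the Young and Old replicates were likewise apart, with 12.2 and 5.72 RPM in Young and 13.9 and 5.97 in Old.

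Most genes of the MSC lineages, like most protein-coding genes of any kind, had no O+Y region. Over the 10 gene lists, 10 of 226 entries (4.42%) overlapped an O+Y region or had one within 10 kb of the start, beside 1.84% of all 21755 protein-coding genes. A gene's length sets how many regions it can hold, and this was not adjusted for. The counts were 2 of 25 osteoblast genes (Dmp1 among them), 3 of 22 adipocyte genes (Adipoq, Zfp423 and Prdm16), 2 of 18 cartilage genes (Sox5 and Acan), 2 of 37 genes of acetyl-CoA supply and histone acetylation (Hdac4 among them) and 1 of 21 neuronal genes (Rbfox1). None was found for the lists of stromal stem cell genes (18), contractile genes (16), TGF-beta, BMP and Wnt signalling (36), haematopoietic and macrophage genes (21) and endothelial genes (12). Shared regions were found at 20 of the osteoblast and 19 of the adipocyte genes by the same distance rule.

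Among the cartilage genes, the Acan region (chr7:79052501-79057500) covered the start site printed above. It had 13.2 and 10.6 RPM in Young, 12.9 and 11.1 RPM in Old, and 10.4 and 6.67 RPM in OldAcetate. OldAcetate replicate 1 lay just under the other groups and replicate 2 well under them, with a scaled difference of -0.55. The region in an intron of Sox5 (a chondrogenic transcription factor) had 18.1 and 8.17 RPM in Young, 12.9 and 10.7 RPM in Old, and 8.40 and 13.3 RPM in OldAcetate, where the Young replicates were farther apart than the groups.

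The adipocyte genes were unlike each other. Prdm16 (a regulator of brown fat identity) held 2 O+Y regions in introns. The longer (chr4:154447001-154457000) had 27.3 and 23.7 RPM in Young, 24.0 and 21.5 RPM in Old, and 18.5 and 16.7 RPM in OldAcetate, with OldAcetate lowest in both replicates (-0.51). The shorter (chr4:154378001-154381500) had 11.2 and 12.3 RPM in Young, 11.1 and 6.36 RPM in Old, and 7.06 and 4.59 RPM in OldAcetate, where Old replicate 2 fell between the OldAcetate libraries (-0.81). At Adipoq (adiponectin; chr16:23157001-23169500) the values were 22.7 and 26.6 RPM in Young, 20.3 and 17.9 RPM in Old, and 22.5 and 21.7 RPM in OldAcetate. Here OldAcetate lay above both Old libraries in RPM, and the scaled difference was -0.03, so that this region carries the O+Y code without a lower OldAcetate level.

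In the osteoblast list, Dmp1 (a matrix protein of bone-embedded cells) had 11.2 and 10.2 RPM in Young, 12.9 and 7.56 RPM in Old, and 9.41 and 10.0 RPM in OldAcetate, and the groups overlapped. In the acetylation list, the Hdac4 region (a histone deacetylase) had 10.2 and 8.99 RPM in Young, 7.40 and 7.95 RPM in Old, and 6.05 and 6.67 RPM in OldAcetate, with OldAcetate lowest. The region in Rbfox1 (a neuronal splicing factor) had 8.23 and 8.58 RPM in Young, 5.08 and 7.56 RPM in Old, and 7.06 and 4.17 RPM in OldAcetate. Old and OldAcetate overlapped there, with a scaled difference of -0.44.

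Further start sites of genes with known roles in bone were named after their values were seen. Ctsk (cathepsin K, the collagen-degrading protease of osteoclasts; chr3:95498001-95501500) had 16.8 and 8.17 RPM in Young, 12.02 and 11.14 RPM in Old, and 7.06 and 7.09 RPM in OldAcetate. Notum (an enzyme that inactivates Wnt proteins; chr11:120659001-120662500) had 11.5 and 10.2 RPM in Young, 8.32 and 9.94 RPM in Old, and 7.39 and 6.26 RPM in OldAcetate. Wnt16 (a Wnt ligand; chr6:22287501-22290500) had 10.2 and 10.6 RPM in Young, 8.32 and 6.76 RPM in Old, and 5.04 and 6.67 RPM in OldAcetate. Over all 57 start-site regions, both OldAcetate libraries were below the other 4 in 16 (28.1%), beside 2.46% of all regions. These 3 are examples picked among the 16, so their order was fixed by the picking and does not stand for the other start-site regions.

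The longest O+Y regions were 17500 bp inside D17Wsu92e and 15000 bp in an intron of Rbms3 (an RNA-binding protein). The first had 36.5 and 33.9 RPM in Young, 32.8 and 31.0 RPM in Old, and 27.6 and 30.0 RPM in OldAcetate, and the second 41.1 and 38.0 RPM in Young, 28.2 and 28.6 RPM in Old, and 29.9 and 27.9 RPM in OldAcetate. With 61 to 125 reads per library they had the least counting error of the named regions. In Rbms3 both Young libraries were higher than the Old and OldAcetate libraries, which overlapped.

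**Figure D4:**
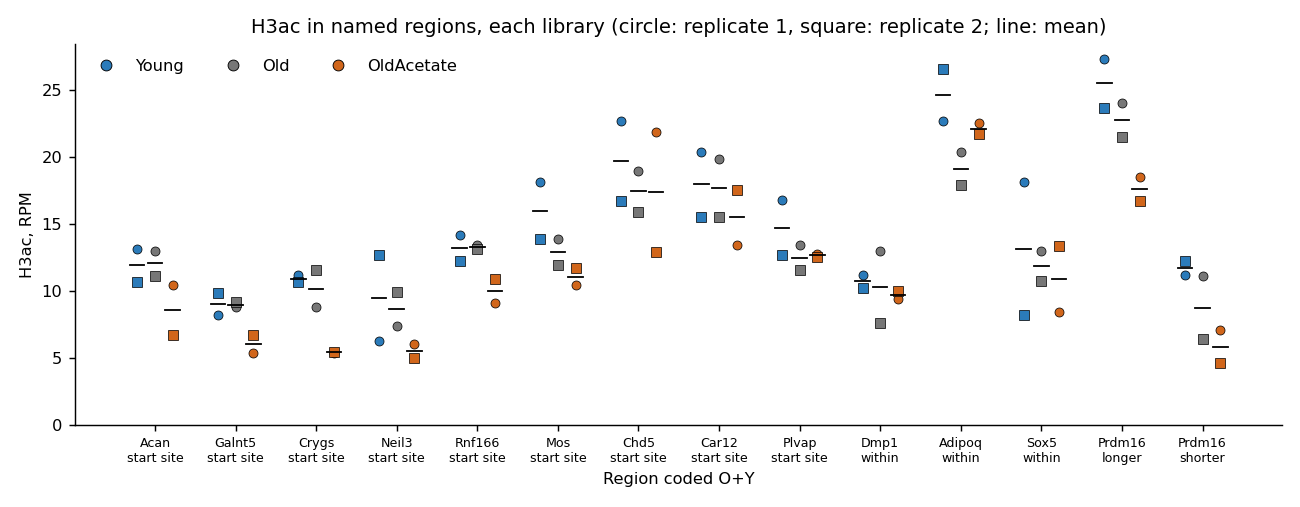
H3ac in RPM in each library for 14 O+Y regions at start sites or within genes (points: libraries, circle replicate 1 and square replicate 2; lines: group means). OldAcetate lay lowest at Acan, Galnt5, Crygs and Rnf166, and within the spread of the other groups at Adipoq, Dmp1 and Sox5.

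Base composition was compared over all regions and at start sites. Over all O+Y regions, median GC content was 44.7%, against 46.3% in shared regions, and the observed-to-expected CpG ratio was 0.214 against 0.282. AC+Y and Y regions had 45.7% and 45.3%, with CpG ratios of 0.225 and 0.212. In start-site regions GC content was 52.6% for O+Y and 48.2% for shared regions, the opposite order, and the CpG ratio was 0.441 and 0.424. AC+Y and Y start-site regions had 49.9% and 50.6%, with CpG ratios of 0.456 and 0.433. The median length of start-site regions was 3000 bp for O+Y, 5500 bp for shared, 3500 bp for AC+Y and 3000 bp for Y. Length was not adjusted for. Of the 57 start-site regions, 43 genes matched a RefSeq promoter, and these held a median of 16 CpGs in 300 bases (quartiles 9 and 23.5), against 22 in 6450 genes with shared start-site regions, 18 for AC+Y, 15 for Y and 7 over 32851 RefSeq promoters. The printed Acan sequence thus lies above the upper quartile and Crygs and Galnt5 below the lower one. Repeats, taken as soft-masked bases, made up a median of 18.4% of an O+Y region, 18.9% of a shared one, 18.7% for AC+Y and 18.1% for Y, and 3 O+Y regions were masked over more than 50% of their length.

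Short motifs in the middle 500 bases were then counted on both strands, as a description. TGANTCA (AP-1, the factors of Fos and Jun) was in 21.5% of O+Y regions (95% Wilson interval 18.5 to 24.9), 16.4% of shared regions and 16.9% of all regions. GGAATG (TEAD, the partners of Yap) was in 31.4% (27.9 to 35.2), 24.8% and 25.4%. The core motif of hypoxia-inducible factors, ACGTG or GCGTG, was in 38.5% (34.8 to 42.4), 48.7% and 47.5%, and it contains a CpG. The remaining motifs were rarer. TGTGGTTT (RUNX) was in 3.88% of O+Y and 3.99% of all regions, CACGTG (an E-box that overlaps the ACGTG motif) in 4.85% and 7.47%, GGGCGGGG (SP/KLF) in 5.18% and 7.64%, TGACGTCA (CRE) in 0.324% and 0.864%, ACCGGAAGT (ETS) in 0 of 618 and 0.397%, and the palindromic NFI motif in 0 of 618 and 0.0450%. A count of 0 here has an upper Wilson limit of 0.618%.

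The differences for AP-1, TEAD and the hypoxia motif were smaller away from start sites. In the 561 O+Y regions over 1 kb from a start, AP-1 matches were in 21.9% (18.7 to 25.5), against 21.1% of 9801 shared, 21.7% of AC+Y and 21.5% of Y regions at that distance. TEAD matches were in 31.2% (27.5 to 35.1), against 28.2%, 27.6% and 29.7%. The hypoxia motif was in 36.7% (32.8 to 40.8), against 40.6%, 39.9% and 42.0%. For all 3 motifs the O+Y interval holds the share of shared regions. The AP-1 match also did not go with the H3ac difference by much, with a median scaled difference of -0.38 in the 133 O+Y regions with a match and -0.34 in the 485 without.

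**Figure D5:**
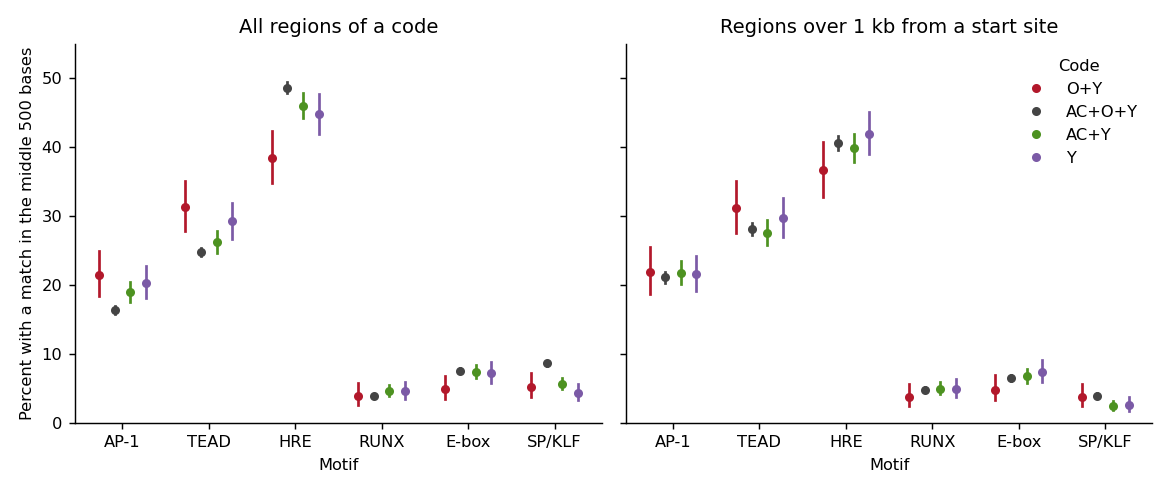
Percent of regions with a match to each motif in the middle 500 bases (points, with 95% Wilson intervals) by code, for all regions (left) and for those over 1 kb from a start site (right). The AP-1 share of O+Y regions was 21.5% against 16.4% of shared regions on the left, and 21.9% against 21.1% on the right.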

How the data were processed

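The deposited table, made by the authors, gives RPM values, 1 column per library, although it is named as RPKM. The submitters' processing notes list Bowtie2, Picard and mm10, and how regions and codes were called is not given in the sources used here. Per library, 100% of values came out as whole reads (tolerance 0.01) once divided by the value of 1 read, so reads and library totals were recovered from the deposited values. Region bounds lie on steps of 500 bp and were read as GRCm38.

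Differences were tested with limma 3.58.1 (R 4.3.3) on log2(RPM + 0.5) of all 24431 regions and 6 libraries, each library centred on its median deviation from the region means, with Benjamini-Hochberg adjustment at 0.05. These log2 differences understate changes of low regions. edgeR 4.0.16 on the recovered read counts was an alternative. Both were tested on simulated data.

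Start sites are gene starts of GENCODE release 21 for mouse (protein-coding), and sequence came from GRCm38.p6. Named regions were the 8 with most RPM per kb, the 8 lowest and 4 highest in OldAcetate with at least 10 reads, the 8 highest start-site regions, up to 3 per gene list and the 2 longest. Of these, 2 regions are not reported here. The regions, lists and rules were chosen with earlier results of these data known. Figures used matplotlib 3.10.9.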

Additional observations from a re-analysis of the deposited data

How the results depend on the processing

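The lower OldAcetate level of the O+Y regions kept its direction under all alternatives tried. The code selected for this level from the same libraries, so the kept direction is a description and no support. The median scaled difference was -0.35, moved to -0.28 with values as given, and ranged from -0.39 to -0.31 when 1 library was left out. Old minus Young changed sign, from 0.09 to -0.26 with values as given, where all regions had -0.35. It ranged from 0.062 to 0.17 when 1 library was left out, and the highest value was without Old replicate 2. The share of O+Y regions with both OldAcetate libraries lowest was 35.0% after median scaling. With start sites counted within 5 kb, within 10 kb or from any annotated gene, the share at start sites was 12.8%, 18.0% and 19.7%. In the middle 500 bases the median masked share was 12.4%. In the middle 300 bases, AP-1 matches were in 12.5% of O+Y and 10.0% of shared regions, and TEAD in 19.6% and 15.5%. The hypoxia motif was there in 24.6% and 34.4%. In the whole region the order for AP-1 and TEAD was reversed. AP-1 was then in 79.6% of O+Y and 82.0% of shared regions, TEAD in 88.8% and 93.1%, and the hypoxia motif in 94.8% and 98.3%. Whole regions differ in length, which was not adjusted for. The range of 5 to 15 RPM was chosen after seeing the data.

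No O+Y region was called in any comparison under any alternative, except the 9 for Old vs Young with values as given. Over all regions, calls for OldAcetate vs Old went from 0 to 76 with values as given, 2 with quantile normalization, 2 with only the 4 libraries compared, and 0 to 3 with 1 library left out (2 and 3 without Young replicates 1 and 2, 1 without Old replicate 2). For OldAcetate vs Young they went from 0 to between 0 and 4, the 4 without Young replicate 2. For Old vs Young they went from 2 to 2327 with values as given, 5 with quantile normalization, 5 with edgeR, 1 with only the 4 libraries compared, and 0 to 9 with 1 library left out (9 without Young replicate 2, 0 without either Old replicate, 1 without either OldAcetate replicate). With the replicate number as a block, 0 O+Y regions were called in each comparison and 0, 0 and 2 of all regions. Replicate differences over all regions correlated between groups by -0.04 to 0.01. These differences were close to counting error, with a chi-square per degree of freedom from 1.10 to 1.18. The correlation therefore cannot show whether libraries of the same number were paired. The causes were not tested. Power at the depth of these regions was not calculated.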
